A study of Mus musculus with 2 samples.

Results

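Cells detect double-stranded and Z-form RNA with a small set of sensor proteins and pass the signal through shared adaptors. The transcripts of 10 such genes were described here out of 24015 genes in the expression table: the sensor genes Ddx58, Ifih1, Dhx58, Eif2ak2, Zbp1 and Tlr3, the adaptor genes Mavs, Ticam1 and Traf3, and the kinase gene Tbk1. They were listed by function, as genes whose products unedited RNA can trigger or that relay the signal, and all 10 were in the table. Mouse embryonic fibroblasts, connective tissue cells cultured from embryos and grown in DMEM with fetal bovine serum and antibiotics, gave 1 poly(A)+ RNA-seq library with the genotype Adar2+/+ and 1 with the genotype Adar2-/-. Adar2 (gene symbol Adarb1) is an adenosine deaminase that edits adenosine to inosine in double-stranded RNA. The labels name neither the deleted exon nor the number of embryos or clones behind a culture. With 1 library per genotype no difference below has a replicate to be measured against, and every interval is a 95% interval that covers counting error only.

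The libraries rested on 9446911 and 9546998 reads, and levels are given as RPKM (reads divided by gene length in kilobases and by the size of the library), always with the Adar2+/+ culture first. Adarb1 itself was at 18.4 and 25.8 RPKM, higher in the library labelled as lacking it, and Adar, the gene of the editing enzyme ADAR1, was at 28.0 and 18.7 RPKM. Which part of Adarb1 is deleted is not in the labels, and a sum of reads over all exons does not test for the loss of 1 of them, so the cultures are called the WT-labelled and the KO-labelled cells. Of 10 fibroblast marker genes all were detected, with summed levels of 523.2 and 545.7 RPKM. Thy1 (9.40 and 72.1 RPKM) and Dcn (29.7 and 12.3 RPKM) were the fibroblast markers at least 2-fold apart.

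RIG-I (Ddx58) and MDA5 (Ifih1) are cytoplasmic helicases that bind double-stranded RNA, RIG-I at RNA ends and MDA5 along the duplex. Both engage MAVS on mitochondria through paired caspase recruitment domains, which LGP2 (Dhx58), the remaining member of the family, lacks. TLR3 reads double-stranded RNA inside endosomes and signals through TRIF (Ticam1). Both routes meet at TRAF3 and the kinase TBK1, which phosphorylates the transcription factor IRF3 and so turns on interferon genes. PKR (Eif2ak2) halts translation by phosphorylating eIF2α, and ZBP1 binds Z-form nucleic acid and can start necroptosis. The sensor genes are themselves induced by interferon. Editing by ADAR1 is known to keep the cell's own RNA from activating MDA5, and ADAR1 and ZBP1 share the Zα domain that binds Z-form RNA.

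The sensors and the signalling genes differed in pattern between the libraries. All 6 sensor genes were lower in the KO-labelled cells, 5 of them at least 2-fold on the scale of RPKM + 1, while Mavs, Ticam1, Traf3 and Tbk1 were within 2-fold. Of all genes, 13867 reached 1 RPKM in at least 1 culture and were compared, and 7.46% of these were lower by 2-fold or more in the KO-labelled cells and 4.42% higher by 2-fold or more. Among the members 5 of 10 were lower by that measure and 0 of 10 higher. Lower by any amount on that scale were 6826 of the 13867 compared genes and 8 of the 10 members. The median log2 ratio was -0.85 over the 10 members and 0.01 over all compared genes. The members were chosen with earlier results of these data known, in which interferon-induced genes were seen to be lower in the KO-labelled cells. The sensors' direction is therefore not an independent observation. No count over interferon-induced genes as a class was made here. In bulk RNA, fewer cells expressing a gene and less RNA per cell cannot be told apart.

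**Figure D1:**
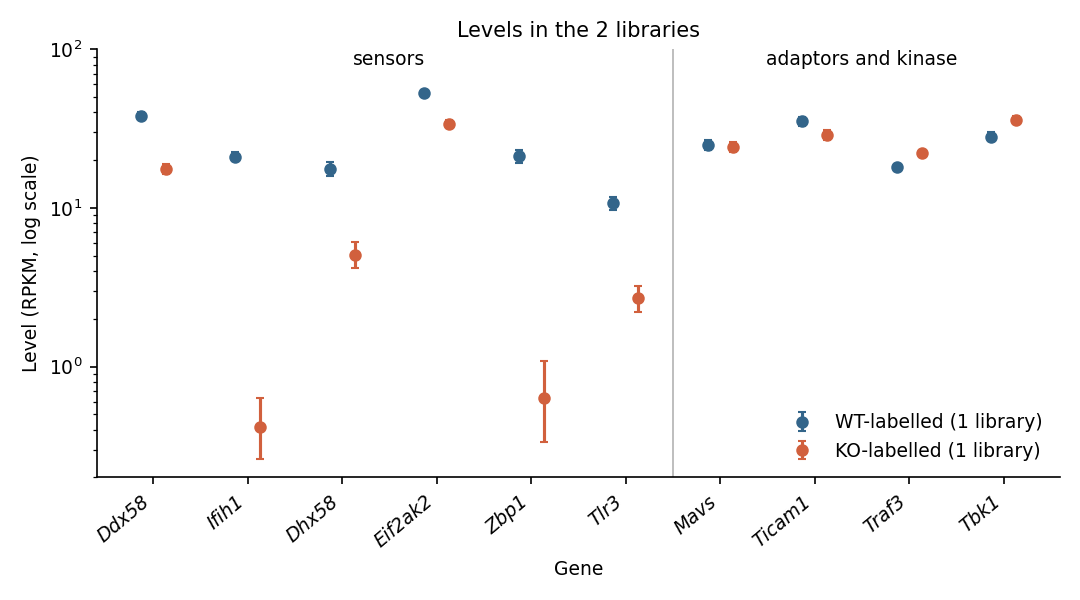
Level of each gene in the WT-labelled and the KO-labelled cells (1 library each), in RPKM on a log scale, with exact Poisson 95% intervals of the read count as bars. Ifih1 and Zbp1 go from 21.1 and 21.2 RPKM in the WT-labelled cells to 0.418 and 0.630 RPKM in the KO-labelled cells, while the adaptor and kinase genes stay between 18.0 and 35.8 RPKM.

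Ifih1 showed the widest gap. It stood at 21.1 RPKM in the WT-labelled cells, from 1099 reads, and at 0.418 RPKM in the KO-labelled cells, from 22 reads. The WT-labelled level was 50.5 times the KO-labelled one, and the log2 ratio of reads, KO-labelled over WT-labelled, was -5.66 (interval -6.34 to -5.05). Of the 13867 compared genes, 41 had a lower log2 ratio on the scale of RPKM + 1. In the WT-labelled cells Ifih1 lay above 53.6% of compared genes, and in the KO-labelled cells above 3.31%. The authors' deposited table gives it a GFOLD value, a log2 fold change shrunken toward 0 where reads are few, of -4.90.

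The other helicase genes of the family were lower by smaller amounts. Ddx58 had 38.2 RPKM (1783 reads) in the WT-labelled cells and 17.6 RPKM (831 reads) in the KO-labelled cells, with a log2 ratio of reads of -1.12 (interval -1.24 to -0.997). Dhx58 had 17.6 RPKM (402 reads) and 5.08 RPKM (117 reads), with a log2 ratio of reads of -1.80 (interval -2.11 to -1.50). The 3 intervals of Ddx58, Dhx58 and Ifih1 did not overlap one another, so their ratios differed from one another beyond counting error. Ddx58 was close to the 2-fold mark: its log2 ratio of RPKM + 1 was -1.07, while the authors' deposited table gives a GFOLD value of -0.92.

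The make-up of the RIG-I-like receptor transcripts differed accordingly. Ddx58, Ifih1 and Dhx58 together summed to 76.9 RPKM in the WT-labelled cells and 23.1 RPKM in the KO-labelled cells. Ddx58 made up 49.7% and 76.2% of that sum. Ifih1 made up 27.4% in the WT-labelled cells and 1.81% in the KO-labelled cells. Dhx58 kept a similar share, 22.9% and 22.0%. The RPKM of Ddx58 over that of Ifih1 was 1.81 in the WT-labelled cells (interval 1.68 to 1.95) and 42.2 in the KO-labelled cells (27.7 to 67.7). RPKM had a ceiling in both libraries, and whether it compressed such ratios was not tested.

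Zbp1, the Z-form RNA sensor, resembled Ifih1. It had 21.2 RPKM (433 reads) in the WT-labelled cells and 0.630 RPKM (13 reads) in the KO-labelled cells. That was a 33.7-fold lower level, with a log2 ratio of reads of -5.07 (interval -5.99 to -4.28), and 48 compared genes had a lower log2 ratio of RPKM + 1. The intervals of Zbp1 and Ifih1 overlapped, and within each library their levels were not apart beyond counting error. Both genes were thus somewhat below Mavs in the WT-labelled cells and at the bottom of the 10 members in the KO-labelled cells.

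Tlr3, the endosomal receptor, had 10.7 RPKM (437 reads) and 2.69 RPKM (111 reads), and its log2 ratio of reads was -1.99 (interval -2.31 to -1.69). It was the lowest of the 10 members in the WT-labelled cells. Among 12 Toll-like receptor genes it ranked 3 by RPKM in the WT-labelled cells, below Tlr2 (31.6 RPKM) and Tlr4 (14.4 RPKM). In the KO-labelled cells it ranked 5, also below Tlr1 (5.97 RPKM) and Tlr6 (4.23 RPKM). The log2 ratio of RPKM + 1 was -1.66 for Tlr3, while Tlr2 and Tlr4, which sense bacterial products at the cell surface, were higher in the KO-labelled cells at 0.37 and 0.59. Tlr7, an endosomal receptor of single-stranded RNA, had 0.479 and 0.369 RPKM. Tlr8 had 0.0335 and 0.0332 RPKM, Tlr9 had 0.0305 RPKM and was listed at 0, and Unc93b1, which carries the endosomal receptors to their compartment, was at 0.888 and 0.832 RPKM.

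Eif2ak2, encoding PKR, was the sensor gene with the smallest difference. It had 53.1 RPKM (2169 reads) in the WT-labelled cells, the highest level of the 10 members, and 33.8 RPKM (1397 reads) in the KO-labelled cells. Its log2 ratio of reads was -0.65 (interval -0.75 to -0.55), outside counting error but short of 2-fold. PKR is 1 of 4 kinases that phosphorylate eIF2α, and its gene had the highest RPKM of the 4 in both libraries. Among the others, the heme-regulated kinase gene Eif2ak1 had 23.1 and 24.0 RPKM and the endoplasmic reticulum stress kinase gene Eif2ak3 18.6 and 16.03 RPKM. The amino acid sensor gene Eif2ak4 had 7.58 and 10.9 RPKM.

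**Figure D2:**
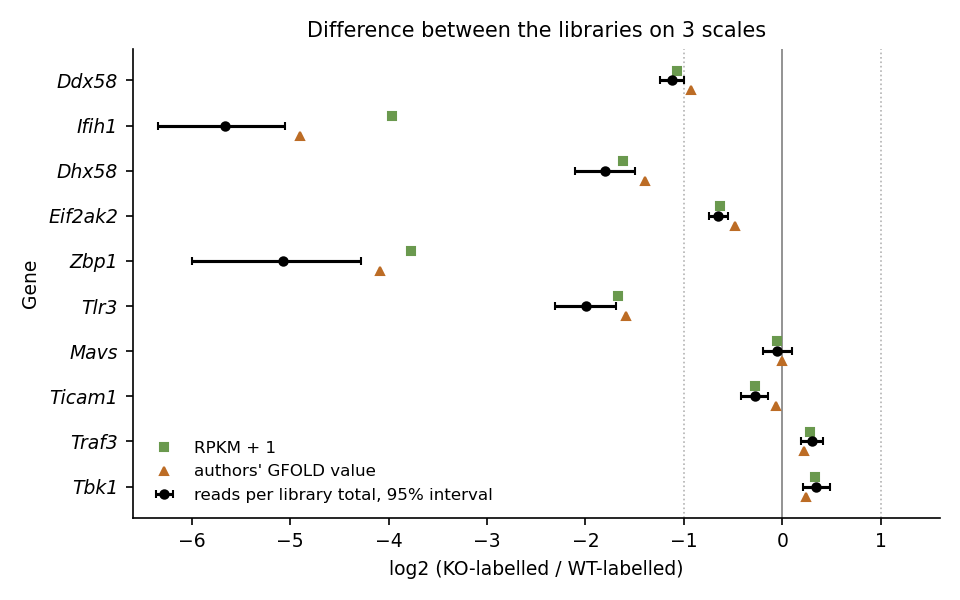
Difference of each gene between the libraries as log2 (KO-labelled / WT-labelled), from the reads with exact 95% counting intervals (circles and bars), from RPKM + 1 (squares) and as the authors' GFOLD value (triangles). Dotted lines mark 2-fold. All 6 sensors lie left of 0 on every scale, and the scales part most for Ifih1 and Zbp1, whose KO-labelled values rest on 22 and 13 reads.

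Promoter sequences were looked at because 6 genes of 1 functional class lay on the same side. The interferon-stimulated response element, the site that interferon-activated factors bind, has the core GAAANNGAAA. RefSeq promoters of build GRCm38.p6, running from 250 bases before to 50 bases after the start of the gene, were in hand for 8 of the 10 members, all but Dhx58 and Zbp1. The core was found, on either strand, in the promoters of Ifih1, Ddx58 and Eif2ak2. It was not found in those of Tlr3, Mavs, Ticam1, Traf3 and Tbk1. Of all 32851 promoters of that length 3.44% hold it. The 3 promoters with the core and that of Mavs, without it, are shown from 100 bases before to 50 bases after the start, 5′ to 3′ on the gene's strand, with the core in capitals.

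Ifih1: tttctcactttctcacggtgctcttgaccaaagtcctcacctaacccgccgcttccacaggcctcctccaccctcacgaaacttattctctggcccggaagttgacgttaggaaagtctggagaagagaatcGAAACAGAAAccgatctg
Ddx58: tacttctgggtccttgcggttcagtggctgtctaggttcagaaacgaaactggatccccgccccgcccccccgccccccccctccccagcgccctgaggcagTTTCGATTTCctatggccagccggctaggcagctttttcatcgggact
Eif2ak2: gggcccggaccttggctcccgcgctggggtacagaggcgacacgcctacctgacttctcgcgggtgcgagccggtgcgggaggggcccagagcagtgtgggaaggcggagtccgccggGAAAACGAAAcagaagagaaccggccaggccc
Mavs: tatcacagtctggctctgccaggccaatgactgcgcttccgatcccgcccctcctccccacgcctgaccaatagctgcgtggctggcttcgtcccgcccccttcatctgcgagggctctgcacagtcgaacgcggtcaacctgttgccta

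These windows lie at chr2:62646206-62646355 (minus strand) for Ifih1, chr4:40239776-40239925 (minus strand) for Ddx58, chr17:78882523-78882672 (minus strand) for Eif2ak2 and chr2:131233963-131234112 (plus strand) for Mavs, all in GRCm38.p6. Counted from 1 at the first transcribed base, the core covers bases 33 to 42 in Ifih1, 3 to 12 in Ddx58, where it lies on the opposite strand, and 19 to 28 in Eif2ak2. All 3 matches are thus downstream of the annotated start, and none of the 8 promoters has one in the 150 bases before it. Of all promoters 1.59% have one there. A second motif, the gamma-activated site TTCNNNGAA, which reads the same on both strands, was found in 1 of the 8, that of Eif2ak2, against 8.30% of all promoters. A match describes letters in a window and not binding. Ifih1, Ddx58 and Eif2ak2 share the core but differ widely in their ratios, at 50.5, 2.17 and 1.57 times higher in the WT-labelled cells.

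The adaptors and the kinase gave near-equal levels. Mavs, the mitochondrial adaptor of RIG-I and MDA5, had 24.99 RPKM (753 reads) in the WT-labelled cells and 24.1 RPKM (734 reads) in the KO-labelled cells, a log2 ratio of reads of -0.05 with an interval of -0.20 to 0.10. The values did not differ beyond counting error, which leaves room for a difference of the size of that interval. Ticam1, encoding TRIF, had 35.2 RPKM (940 reads) and 28.9 RPKM (782 reads), a log2 ratio of reads of -0.28 (interval -0.42 to -0.14). It was slightly lower in the KO-labelled cells.

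Traf3 and Tbk1 were the members with the higher value in the KO-labelled cells. Traf3, a ubiquitin ligase that links the adaptors to the kinase, had 18.0 RPKM (1217 reads) and 22.1 RPKM (1514 reads), a log2 ratio of reads of 0.30 (interval 0.19 to 0.41). Tbk1 had 28.1 RPKM (805 reads) and 35.8 RPKM (1035 reads), a log2 ratio of reads of 0.35 (interval 0.21 to 0.48). Both differences exceeded counting error and neither reached 2-fold. Mavs, Ticam1, Traf3 and Tbk1 summed to 106.3 RPKM in the WT-labelled cells and 111.0 RPKM in the KO-labelled cells, whereas the 6 sensor genes summed to 161.9 and 60.3 RPKM.

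**Figure D3:**
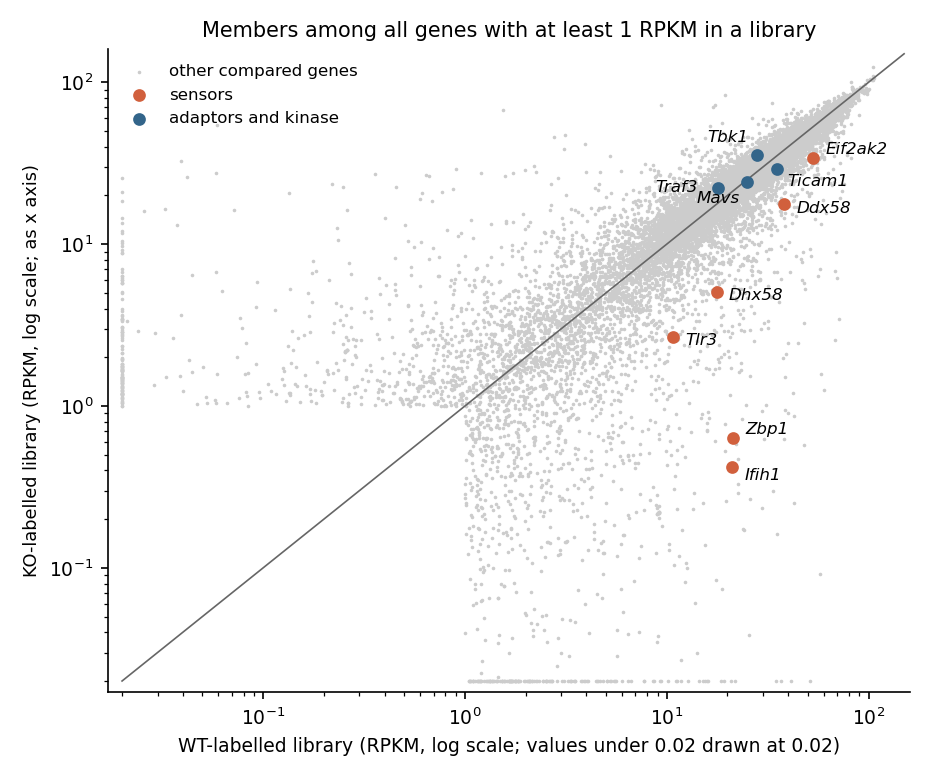
RPKM in the KO-labelled cells against RPKM in the WT-labelled cells, both on log scales, for the 13867 compared genes (grey) with the sensors and the adaptors and kinase marked. The line marks equal values. Ifih1 and Zbp1 lie far below the cloud at their WT-labelled level, and the adaptors and the kinase lie inside it.

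The order of the levels differed between the libraries. In the WT-labelled cells it ran, from high to low, Eif2ak2, Ddx58, Ticam1, Tbk1, Mavs, Zbp1, Ifih1, Traf3, Dhx58 and Tlr3. Of the 9 neighbouring pairs in that order, 7 were apart beyond counting error, and Zbp1 with Ifih1 and Traf3 with Dhx58 were not. In the KO-labelled cells it ran Tbk1, Eif2ak2, Ticam1, Mavs, Traf3, Ddx58, Dhx58, Tlr3, Zbp1 and Ifih1. There 6 of 9 neighbouring pairs were apart, and Tbk1 with Eif2ak2, Mavs with Traf3 and Zbp1 with Ifih1 were not. All 4 signalling genes thus stood above every sensor gene other than Eif2ak2 in the KO-labelled cells, while sensors and signalling genes were interleaved in the WT-labelled cells. At least 10 RPKM was reached by 10 members in the WT-labelled cells and by 6 in the KO-labelled cells. Of the 13867 compared genes, 9848 reached that level in the WT-labelled cells, and the number in the KO-labelled cells was not counted.

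Set against Mavs or Ticam1 within each library, the receptor genes were lower in the KO-labelled cells. The RPKM of Ifih1 over that of Mavs was 0.843 (interval 0.768 to 0.926) in the WT-labelled cells and 0.0173 (0.0108 to 0.0264) in the KO-labelled cells. For Ddx58 over Mavs the values were 1.53 (1.40 to 1.67) and 0.730 (0.661 to 0.808). Ddx58 thus had the higher RPKM of that pair in the WT-labelled cells and the lower in the KO-labelled cells. Dhx58, whose product has no caspase recruitment domain to engage MAVS, is set against Mavs as a relative level only, at 0.706 (0.624 to 0.798) and 0.211 (0.172 to 0.256). The ratio of Tlr3 to its adaptor gene Ticam1 was 0.304 (0.271 to 0.341) and 0.0928 (0.0754 to 0.113). Traf3 over Tbk1, a pair of signalling genes, was 0.64 (0.58 to 0.70) and 0.62 (0.57 to 0.67), with overlapping intervals.

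**Figure D4:**
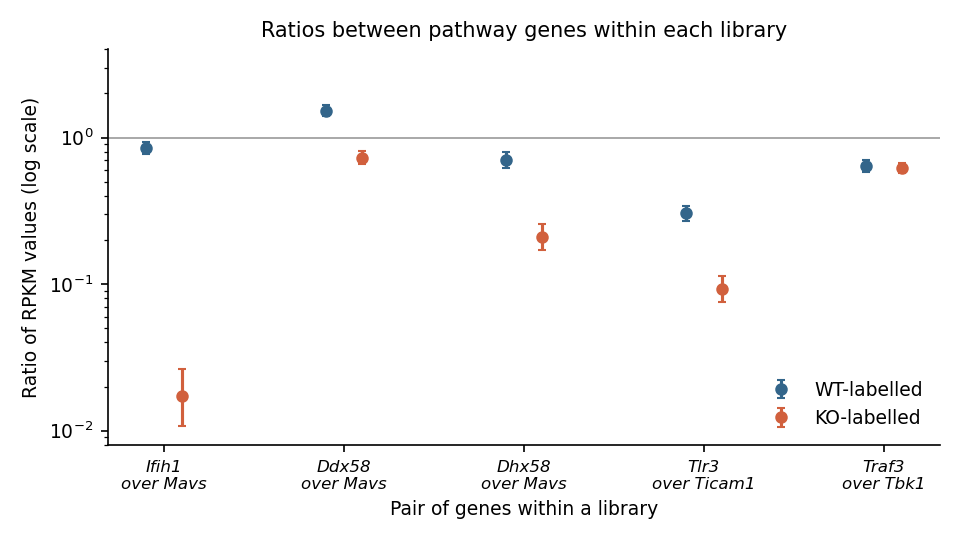
Ratio of RPKM values between pairs of genes of the pathway within each library, on a log scale, with exact 95% counting intervals as bars. The line marks equal levels. The ratio of each receptor gene to Mavs or Ticam1 is lower in the KO-labelled cells, most for Ifih1 over Mavs (0.843 and 0.0173), and that of Traf3 to Tbk1 is near 0.6 in both.

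None of the 10 members had an edited site listed in either library. The lists held 654 sites in the WT-labelled and 110 in the KO-labelled cells. Among the 9848 genes with at least 10 RPKM in the WT-labelled cells, 153 (1.55%) had a listed site there, so a count of 0 among 10 members is near that background. Of the 106 genes of the surrounding pathways in the table, 1 had listed sites: Ppp1r15b, encoding a phosphatase subunit that reverses the phosphorylation PKR makes on eIF2α. Its 3 sites lie in repeats of the 3′ UTR on chromosome 1 (mm9, plus strand) and were listed in the WT-labelled cells only. Position 135034587 was edited in 56.6% of 53 reads (Wilson interval 43.3 to 69.0). Position 135034121 was edited in 25.9% of 58 reads (16.3 to 38.4). Position 135034138 was edited in 10.6% of 47 reads (4.63 to 22.6). Ppp1r15b had 50.03 and 47.3 RPKM, so its transcript was present in both libraries. Absence from a list does not show that a site went unedited, and no site of these genes could be tested between the libraries.

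The genes around the members were mostly close between the libraries, as compared genes were in general. Of the 108 genes in 8 lists 106 were in the table and 88 were compared. Of these 88, 8 were at least 2-fold lower and 2 at least 2-fold higher in the KO-labelled cells. Within 2-fold were 78 of the 88, and 12219 of all 13867 compared genes. Over all compared genes 7.46% were lower and 4.42% higher, the shares that the counts of each list below stand against. The median log2 ratio of the 88 genes was 0.02. Values named below are RPKM, WT-labelled cells first, and ratios are log2 of RPKM + 1.

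Cofactors of the RIG-I-like receptors, such as RNA helicases and ubiquitin ligases, had a median of 0.09 over 14 genes, with 2 at least 2-fold lower and 0 higher. Trim25, a ubiquitin ligase described as an activator of RIG-I, was at 15.8 and 0.697 RPKM (831 and 37 reads), a ratio of -3.31. The helicase gene Ddx60, noted after its values were seen, was at 2.55 and 0.035 RPKM. Rnf135, encoding Riplet, the ubiquitin ligase of the RIG-I pathway that is also known as its activator, was at 11.8 and 15.6 RPKM. Trim65, a ubiquitin ligase reported for MDA5, was at 6.18 and 10.2 RPKM, the highest ratio of the list at 0.64. Rnf125, a ubiquitin ligase known to limit RIG-I, was at 6.51 and 3.93 RPKM. Trim25 and Rnf135 thus lay on opposite sides, while Mex3c, also of this list, was close at 39.3 and 37.5 RPKM.

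Partners of MAVS at mitochondria had a median of -0.03 over 14 genes and 1 was at least 2-fold lower. That gene, noted after its values were seen, was Nlrx1, a mitochondrial NOD-like receptor described as a negative regulator of MAVS. It had 59 reads (1.57 RPKM) in the WT-labelled cells and 0 in the KO-labelled cells, 19.9-fold lower if the 0 is taken as 3 reads. The upper end of the interval of its log2 ratio of reads was -3.97. The ends among better expressed genes were close: Gpatch3 (9.04 and 7.79 RPKM) and the ubiquitin ligase gene Smurf2 (39.99 and 35.96 RPKM) below, and Pcbp2 (45.1 and 52.2 RPKM) and the mitochondrial ubiquitin ligase gene March5 (23.8 and 30.2 RPKM) above.

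The TRAF, TBK1 and IKK module, in which the routes join, had a median of -0.02 over 17 genes, with 1 at least 2-fold lower. This was Irf7, the interferon-induced transcription factor that amplifies interferon production, at 39.1 and 2.08 RPKM (ratio -3.70). Irf3, its constitutive relative and the substrate of TBK1, was at 19.8 and 19.5 RPKM. Ikbke, encoding the kinase closest to TBK1, was at 23.8 and 15.2 RPKM, a ratio of -0.61 against 0.34 for Tbk1. Tank, a scaffold of TBK1, was at 18.5 and 28.1 RPKM and Traf6 at 13.1 and 18.7 RPKM, both higher in the KO-labelled cells along with Traf3. Among 7 genes of the TRAF family Traf3 ranked 5 by RPKM in the WT-labelled cells and 4 in the KO-labelled cells.

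The Toll-like receptor route had a median of 0.13 over 15 compared genes, with 1 at least 2-fold lower and 1 at least 2-fold higher. The higher one was Tlr1, a cell surface partner of TLR2, at 1.11 and 5.97 RPKM. The lower one, noted after its values were seen, was the flagellin receptor gene Tlr5, at 1.46 and 0.065 RPKM. Tlr6 was at 7.45 and 4.23 RPKM, and Tollip, an inhibitor of the route, at 41.6 and 33.6 RPKM. Ticam2, which bridges TLR4 to TRIF, lay under the 1 RPKM minimum at 0.584 and 0.064 RPKM.

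Downstream of ZBP1 and of PKR no gene was 2-fold apart. The necroptosis list had a median of 0.04 over 6 genes. Ripk3, the kinase ZBP1 recruits, was low in both libraries at 1.13 and 1.39 RPKM (21 and 26 reads). Mlkl, which breaches the membrane, was at 28.4 and 39.0 RPKM and Casp8 at 17.5 and 20.5 RPKM, and Fadd was at 17.6 and 14.6 RPKM and Cflar at 24.6 and 21.3 RPKM. The PKR list had a median of 0.09 over 11 genes, with Dnajc3, encoding an inhibitor of PKR, at 40.1 and 34.5 RPKM and Tarbp2, another inhibitor, at 19.2 and 24.8 RPKM.

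The DNA sensor genes Aim2 and Mb21d1 were higher in the KO-labelled cells, unlike the RNA sensor genes. Their list, cytosolic DNA sensing, also holds an adaptor and enzymes such as nucleases, so its median is not one of sensors. That median was -0.13 over 8 genes, of which 5 were lower in the KO-labelled cells. At least 2-fold lower were 0 genes and at least 2-fold higher was 1. Aim2, an inflammasome sensor, was that gene at 5.17 and 12.1 RPKM. Mb21d1, encoding the DNA sensor cGAS, was at 8.20 and 17.2 RPKM (ratio 0.98), and Tmem173, encoding its adaptor STING, was at 34.1 and 31.1 RPKM. The nuclease gene Trex1 was at 33.0 and 23.8 RPKM and Rnaseh2b at 12.4 and 8.70 RPKM. No test of the difference between the lists was made.

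**Figure D5:**
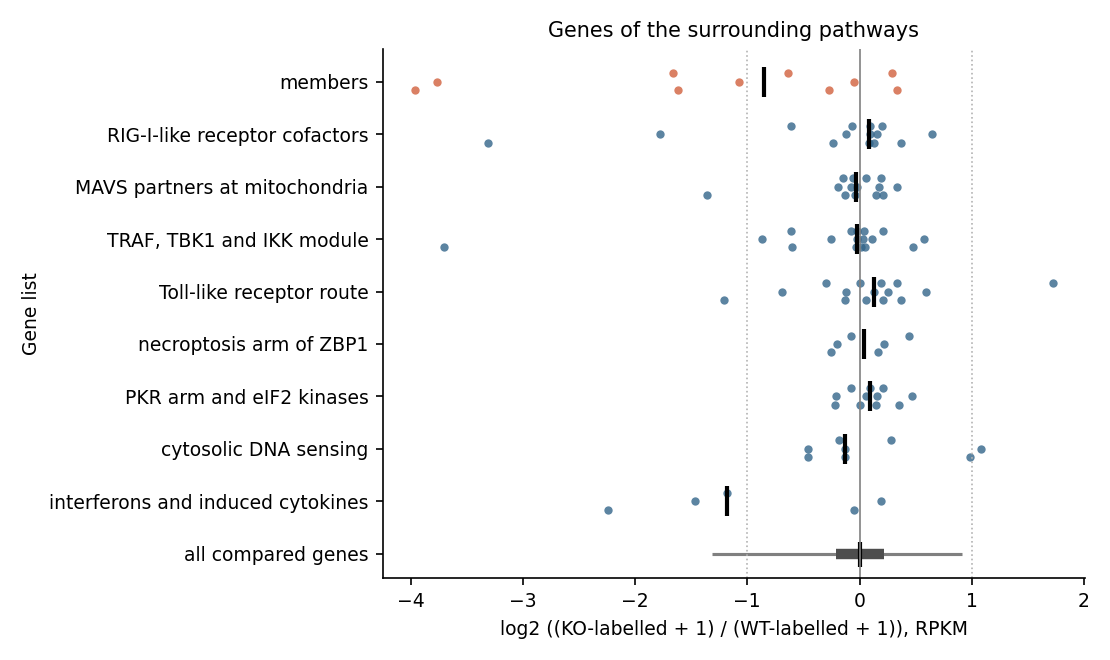
Log2 ratio of RPKM + 1, KO-labelled over WT-labelled, for each member and each compared gene of the surrounding lists (points), with list medians as vertical bars. The lowest line shows all 13867 compared genes, with the thick bar from the 25th to the 75th percentile (-0.21 to 0.22) and the thin bar from the 5th to the 95th (-1.32 to 0.92). List medians lie between -0.13 and 0.13 apart from those of the members (-0.85) and of the interferons and induced cytokines (-1.18 over the 5 of 15 genes that passed the 1 RPKM minimum, 0 without that minimum).

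At the output of the pathway, interferon transcripts were at or near 0 in both libraries. Ifnb1, Ifna1, Ifna2, Ifna4, Ifna5, Ifnk and Ifng were listed at 0 in both, Ifne had 2 reads and Ifnab 1 read in the WT-labelled cells, and both were listed at 0 in the KO-labelled cells. A count of 0 does not show that a transcript was absent. Of the 5 compared genes of this list 3 were lower by 2-fold or more in the KO-labelled cells. The chemokine genes Ccl5 (43.9 and 8.48 RPKM) and Cxcl10 (33.0 and 11.3 RPKM), both targets of IRF3 and of interferon, were lower with the sensors, as was the cytokine gene Il6 (23.4 and 9.73 RPKM), noted after its values were seen. Nfkbia (59.0 and 57.0 RPKM) and Tnfaip3 (19.1 and 21.9 RPKM), feedback inhibitors of NF-κB, were close.

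Markers of other cell types that express these sensors were mostly below 1 RPKM in both libraries. Among 10 macrophage and monocyte genes, Emr1 and Tyrobp were listed at 0 in both libraries and Ptprc was at 0.0747 RPKM and listed at 0. In that list 4 genes reached 1 RPKM in at least 1 culture: Cd14, Cd68, Lyz2 and Csf1r. Cd68 (62 and 90 reads) and Lyz2 (59 and 37 reads) were detected in both libraries. The list summed to 33.4 and 36.2 RPKM, with Cd14 contributing 19.7 and 23.7 RPKM. Csf1r, at 1.75 and 0.0811 RPKM, was its 1 gene at least 2-fold lower. Dendritic cell genes summed to 1.95 and 2.21 RPKM, lymphocyte genes to 0.514 and 0.618 RPKM and mast cell genes to 0.0204 and 0 RPKM. Endothelial genes summed to 4.21 and 0.421 RPKM and epithelial genes to 61.5 and 19.96 RPKM, the latter almost all from Krt19 (59.4 and 18.8 RPKM). The sums of the last 2 lists were lower in the KO-labelled cells together with the sensors, and their part in the sensors' levels was not tested. Within the epithelial list Krt8 went the other way, at 0.0586 and 1.04 RPKM (1 and 18 reads).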

How the data were processed

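Poly(A)+ RNA-seq of 1 library per genotype was used; the groups come from the titles and genotypes in the labels. Per the submitters' processing notes STAR 2.4.0d, SAMtools and build mm9 were used, without the role of each. Gene annotation, counting rule, strand and duplicate treatment are not given in the labels or file headers used here, so reads of overlapping or antisense genes cannot be told apart.

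The authors deposited RPKM per gene, 1 column per library. The same deposited table gives a log2 fold change and a GFOLD value (log2, shrunken toward 0 where reads are few), per the file headers. The empirical FDR that the authors deposited there, a p-value-like column, is 1 throughout and was left aside. The deposited editing files give the count of reads and of mismatches at each site and the editing level as a fraction, per the file headers; levels are printed as percent.

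The authors' log2 fold change is that of reads plus 1, with an offset of 0.037, which with the RPKM values gave whole reads, library totals and gene lengths (1745 lengths had a mean distance of 0.0016 bases from a whole number). All 10 members had a single solution. The recovery was tested on simulated data. Log2 ratios are log2((KO + 1)/(WT + 1)) of RPKM for genes that reach 1 RPKM in either library. Ratios of reads have exact Clopper-Pearson intervals conditional on the sum, levels exact Poisson intervals, at 95%. No p-value was computed for expression, as there is no replicate. Reads are not independent molecules, so intervals cover counting error only. RPKM had a ceiling (highest 107.0 and 124.3). The members lay under it, at up to 0.50 reads per base. Whether their levels and ratios were compressed by that ceiling was not tested. Fisher's exact test at shared sites with at least 10 reads covered 55 sites, with 0 in the members or their pathways.

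The members, lists and tests were chosen with earlier results of these data known. Named genes are the members, Adarb1, Adar, genes with a listed site and the 2 highest and 2 lowest ratios of each list among genes with at least 5 RPKM; other pathway genes were named for their role or as said. Genome coordinates of the GRCm38.p6 promoters were not joined to mm9. Protein sequences were not used here. Python 3.11.15, numpy 2.4.6, pandas 2.3.3, scipy 1.17.1 and matplotlib 3.10.9 were used.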

Additional observations from a re-analysis of the deposited data

How the results depend on the processing

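No paired analysis was possible because each genotype has 1 library, and no library could be left out. The count of members at least 2-fold lower was 5, and 4 with a pseudocount of 5 RPKM or with the authors' GFOLD value, since Ddx58 then stood at -0.93 or -0.92. It stayed at 5 with a pseudocount of 0.1, without a filter, with a filter of 5 RPKM, after centring on the median and with the authors' log2 fold change. No member was 2-fold higher under any of these. The size for low genes rested on the pseudocount: the log2 value of Ifih1 ran from -5.54 to -2.27, that of Zbp1 from -4.92 to -2.22 and that of Tlr3 from -1.95 to -1.03. Mavs ran from -0.06 to 0.00, and each of the other members kept its direction. In the surrounding lists 8 genes were at least 2-fold lower, but 4 with a pseudocount of 5 RPKM and 5 with a filter of 5 RPKM, and 2 were higher, but 0 with that pseudocount and 1 by GFOLD. Over all 13867 compared genes the pseudocount of 5 RPKM gave 419 lower and 192 higher, in place of 1035 and 613. The pseudocount of 0.1 gave 1294 and 830, centring 1039 and 608, the authors' log2 fold change 1227 and 893, and GFOLD 777 and 445. With the filter of 5 RPKM the counts were 659 and 353 of 11722 genes, and without a filter 1035 and 613 of 24015. The median of the interferons and induced cytokines was -1.18 over the 5 genes that passed the filter and 0 without it, when 15 genes entered, 7 of them at 0 in both libraries. The 3 listed sites of Ppp1r15b all had more than 20 reads. The interferon response core was in 3 of 8 member promoters and in 3.44% of all promoters. When a spacing of 3 bases was counted too, the member count stayed at 3 of 8 while the share of all promoters was 5.99%. The core without that wider spacing was in 0 member promoters when only the 150 bases before the start were searched, where 1.59% of all promoters have it. With the spacing of 3 bases Ifih1 had a match there, at bases -107 to -97, against 1.39% of all promoters.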
